A study of Mus musculus with 2 samples.

Results

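The genes described here are 8 members of the major histocompatibility complex (MHC) class II presentation pathway, H2-Aa, H2-Ab1, H2-Eb1, H2-Oa, H2-DMa, H2-DMb1, Cd74 and Ciita. They were chosen by name as members of this pathway, and all 8 were among the 21823 genes found in at least 3 cells. They were measured by droplet-based 3′ single-cell RNA-seq in the vomeronasal organ (VNO), the pheromone-sensing organ of the rodent nose. The cells came from VNOs of male C57 BL/6J wild-type mice at P60, that is at 60 days of age, and were dissociated, frozen, thawed and captured as 2 libraries. Both entries of the labels name 5 VNOs and the methods name 5 male mice in all, so whether the libraries hold cells of the same organs is not clear. Every cell shared this genotype, sex, age and treatment, so the comparisons below are between classes of cells within the libraries, and how the animals were divided between the libraries was not given in the sources used here.

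Class II molecules present peptides from endosomes to CD4 T cells. H2-Aa and H2-Ab1 encode the alpha and beta chains of the classical molecule I-A, and H2-Eb1 encodes the beta chain of the second classical molecule, I-E. Cd74, the invariant chain, holds the peptide groove of newly made class II molecules and guides them to endosomes, where the heterodimer H2-DM (H2-DMa and H2-DMb1) exchanges the invariant chain remnant for peptide and H2-O (H2-Oa with H2-Ob) restrains H2-DM. Ciita is the coactivator that the class II genes require, and it acts through factors bound to a shared promoter module of an X box and a Y box. Dendritic cells, B cells and macrophages are the professional presenting cells, and other cell types can make class II under interferon-gamma.

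The promoter module is printed here because it is what joins most of the 8 genes to Ciita, whose own level is followed below. Promoter windows of 5 of the 8 genes were read from a RefSeq table, and those of the other members were not. Each ran from 250 bases before to 50 after an annotated start on GRCm38.p6. In 4 of those 5 genes the window held the letters GNAAC (the core of the X box) followed by GATTGG (the Y box). In each of the 4, GATTGG began 31 or 32 bases after GNAAC, start to start. GNAAC was not looked for on its own in these genes. In the stretches below, written 5′ to 3′ on the coding strand with these letters in capitals, H2-Oa lies at chr17:34092291-34092352 on the plus strand, H2-DMb1 at chr17:34153085-34153146 on the plus strand, H2-Aa at chr17:34287855-34287916 on the minus strand and H2-Eb1 at chr17:34305764-34305824 on the plus strand.
H2-Aa: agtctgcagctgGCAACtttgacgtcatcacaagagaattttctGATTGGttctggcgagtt
H2-Eb1: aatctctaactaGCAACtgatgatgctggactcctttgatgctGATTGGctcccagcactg
H2-DMb1: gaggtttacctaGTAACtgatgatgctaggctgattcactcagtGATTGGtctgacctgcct
H2-Oa: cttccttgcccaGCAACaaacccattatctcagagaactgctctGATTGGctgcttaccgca
The Y box began 44 bases before the tabulated start of H2-Oa, 49 before that of H2-Aa, 60 before that of H2-Eb1 and 62 before that of H2-DMb1. Among all 32851 tabulated promoters, GATTGG occurred on either strand in 16.1% and GNAAC in 84.8%. Both occurred on the same strand in this order 25 to 50 bases apart in 1.44%, and 31 or 32 bases apart in 0.128%. These shares count both strands, while the stretches above lie on the coding strand. The windows of the 2 tabulated H2-DMa starts did not hold the pair of letters 25 to 50 bases apart, and the letters and spacing were chosen after the sequences were seen. These windows, chr17:34122582-34122881 and chr17:34125268-34125567, lie inside the H2-DMa span given below, and the start of that span was not read. The tabulated starts and the spans come from different annotations. The H2-DMb1 stretch also lies inside its span and the H2-Oa stretch overlaps its span. H2-Oa, the gene whose level differed most between dendritic cells and macrophages below, shared the 32-base spacing with H2-Aa and H2-DMb1.

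On GRCm38 the MHC members are protein-coding genes spread over chromosome 17. H2-Oa spans chr17:34092340-34095234, H2-DMa chr17:34119541-34139101, H2-DMb1 chr17:34153072-34160230, H2-Ab1 chr17:34257689-34269419, H2-Aa chr17:34282744-34287823 and H2-Eb1 chr17:34305867-34316674, with H2-Aa alone on the minus strand. Ciita spans chr16:10480059-10528418 on the plus strand. H2-DMb1 has a near-identical neighbour in H2-DMb2 and H2-Eb1 a close relative in H2-Eb2, and reads shared by such copies could have been left uncounted or credited to either, so levels of these genes are less certain than those of the other members.

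After filtering, 10592 cells remained, 5694 in library 1 and 4898 in library 2, with a median of 6668 and 6650.5 unique molecular identifiers (UMIs, 1 per captured RNA molecule) per cell. No class was defined by the 8 genes or by the related genes listed below, as the clustering was run without them. Of the 32 clusters, 26 were joined into 21 classes named from marker genes, and 6 clusters with 1232 cells stayed unnamed. Levels are given as CPM, a share of all UMIs summed over the cells of a class, scaled to 1000000, as the mean ± SD of the 2 libraries. Because 1 molecule yields 1 UMI near its 3′ end, levels are set side by side between classes and not between genes. The 2 libraries may derive from one pool of cells, and their spread need not cover the spread between mice. Their counts differed beyond sampling noise in each class, with a chi-square per degree of freedom of 1.56 to 9.16 over genes, and they were kept as separate replicates. They shared 33 barcode sequences, 3 of them in kept cells of both.

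The label of each class was checked against its markers. The dendritic-like class (368 cells) held 9 of 11 dendritic markers raised at least 4-fold over the other cells. The Mrc1-low macrophage-like cluster (691 cells) held 7 of 8 macrophage markers, 2 of 11 dendritic markers and 4 of 6 Trem2 macrophage markers when set against the Mrc1-high macrophage-like cluster (491 cells). The latter held 8 of 8 macrophage markers and 8 of 8 resident macrophage markers, such as Mrc1, Lyve1 and Cd163. The genes leading the Mrc1-low cluster were Cd207 (langerin, known from Langerhans cells), H2-M2, Gdf3 and Mmp12, so its identity among myeloid cells is uncertain and its name stands for the markers given here. Among the other classes, the monocyte-like class (119 cells) held 7 of 7 monocyte and 5 of 6 non-classical monocyte markers, so it may mix these kinds. The endothelial-like class (749 cells) held 7 of 7 of its markers and the tuft-like class (642 cells) 4 of 5. The sustentacular-like class (284 cells) held 3 of 5 sustentacular and 3 of 6 non-sensory epithelial markers. A cluster of 51 B lineage cells held 6 of 7 B cell and 5 of 5 plasma cell markers, and its values are those of the mixture.

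The 8 genes together reached a summed level above 1000 CPM in both libraries in 9 of the 21 classes, and in 7 when non-immune cells holding a UMI of any of 10 leukocyte markers (listed below) were left out. Most of their UMIs lay in myeloid cells, 44.9% in the macrophage-like class and 27.5% in the dendritic-like class, which made up 11.2% and 3.47% of the cells. The sustentacular-like class, a supporting cell type of the sensory epithelium, held 6.87% with 2.68% of the cells, more than any other named class outside the leukocytes. The members did not share 1 distribution, as H2-Oa had 73.8% of its UMIs in the dendritic-like class while Ciita had 30.96% there, 28.5% in the macrophage-like and 11.6% in the sustentacular-like class.

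**Figure D1:**
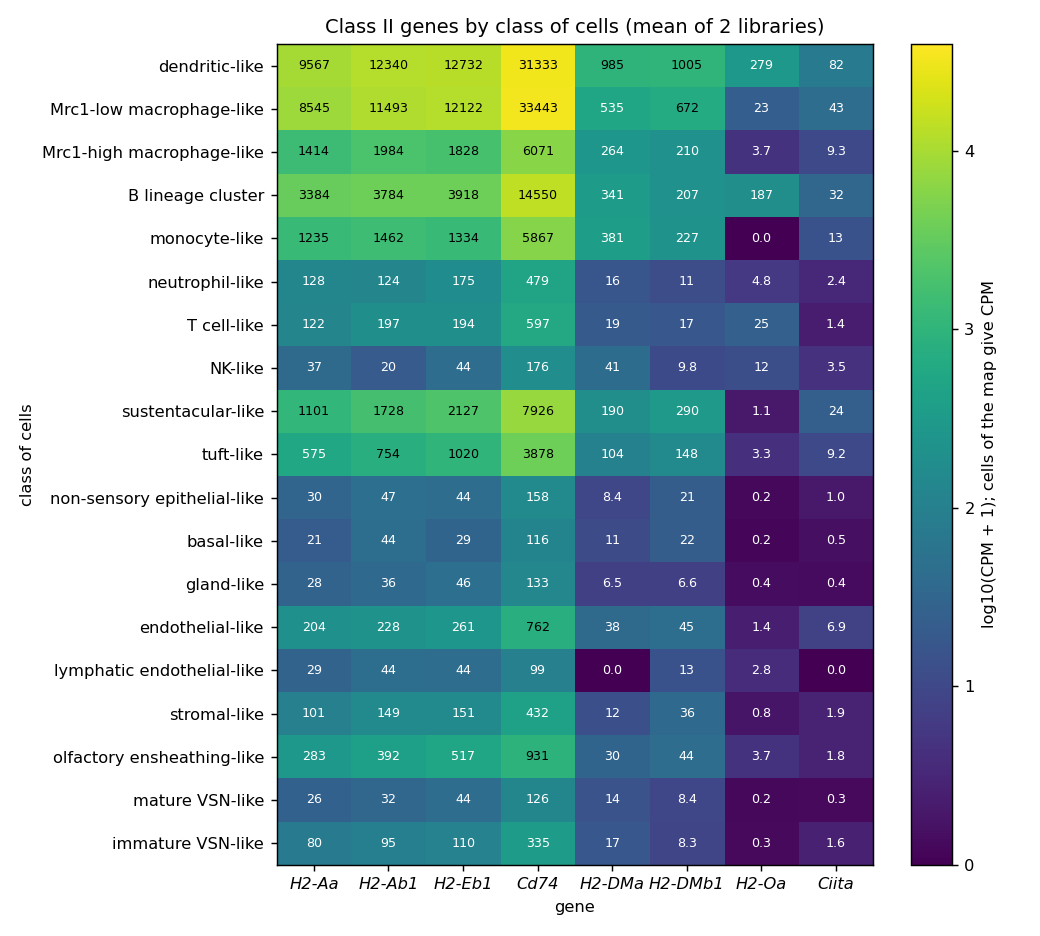
Level of each of the 8 class II genes (columns) in each class of cells (rows), as the mean CPM of the 2 libraries, printed in each field and shown in colour as log10(CPM + 1). Dendritic-like and Mrc1-low macrophage-like cells had similar levels of the classical chains and Cd74, while H2-Oa was at 279 CPM in the former and 22.8 CPM in the latter.

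In the order of the summed level, dendritic-like cells stood at 74445 and 62199 CPM in libraries 1 and 2 and Mrc1-low macrophage-like cells at 69577 and 64172 CPM. These ranges overlapped, and both lay above every other named class. A cluster of 493 C1q-positive cells, left unnamed by cell type because its median depth was 840 UMIs, followed at 43252 and 37186 CPM, and the B lineage cluster, a mixture with plasma cell markers, at 25906 and 26901 CPM. Below a gap came sustentacular-like cells at 15032 and 11741 CPM, Mrc1-high macrophage-like cells at 14429 and 9139.6 CPM, and monocyte-like cells at 7524 and 13511 CPM, 3 classes whose ranges overlapped. Tuft-like cells, chemosensory epithelial cells, followed at 7683 and 5300.0 CPM and overlapped the monocyte-like range. Olfactory ensheathing-like cells (2528 and 1877 CPM) and endothelial-like cells (1208 and 1883 CPM) overlapped each other and lay under the tuft-like cells. T cell-like cells (1579.7 and 765 CPM), neutrophil-like cells (617 and 1263 CPM), stromal-like cells (987 and 779 CPM) and immature vomeronasal sensory neuron (VSN)-like cells (569 and 725 CPM) came next, each overlapping the range of the class before it except the immature VSN-like cells, which overlapped the neutrophil-like range. The order of the lower classes depended on cells with leukocyte RNA, since without cells holding a leukocyte UMI the mean of the libraries was 784 CPM in endothelial-like, 246 CPM in ensheathing-like, 105 CPM in stromal-like and 84.0 CPM in immature VSN-like cells. The remaining 8 classes were spread from 39.0 to 526 CPM in single libraries. Mature VSN-like cells, a class of 705 neurons with a median depth of 13824 UMIs that has no known class II function, stood among them at 245 and 256 CPM and are used below as the reference class. Their level was not uniform, with a median cell at 0.00703% and a highest at 2.67% of UMIs. Without called doublets it was 106 and 257 CPM in the libraries, and without cells holding a leukocyte UMI 81.1 and 95.3 CPM, and the part of free RNA in it was not tested.

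**Figure D2:**
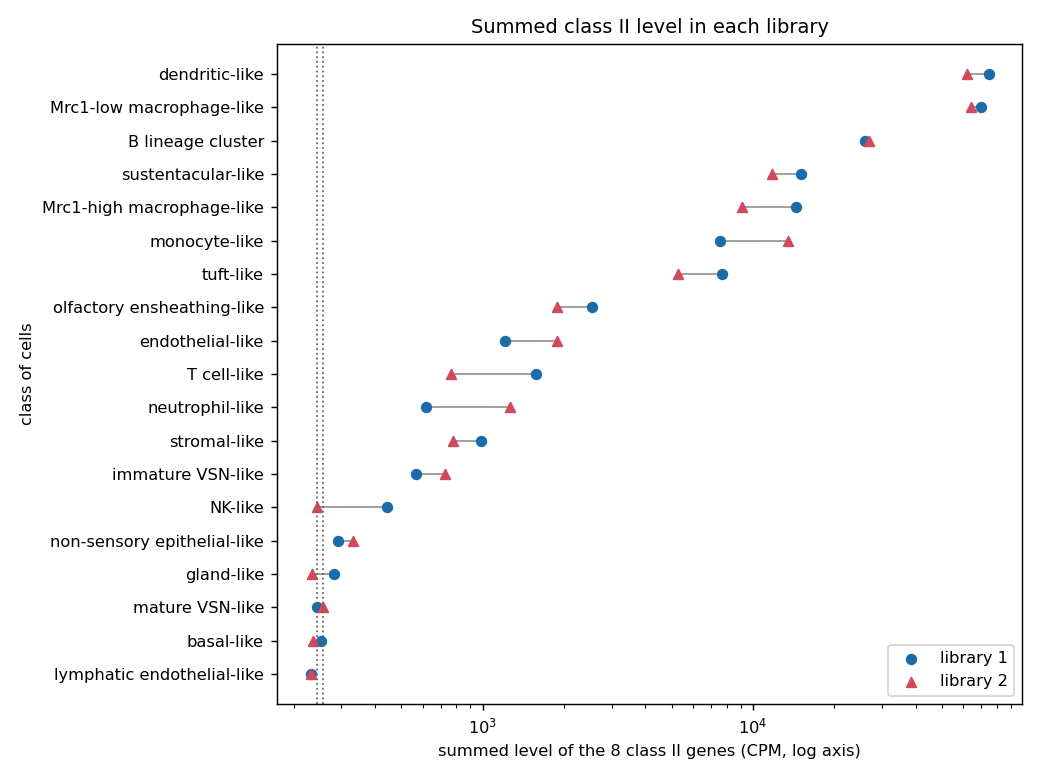
Summed level of the 8 genes in CPM (log axis) for each class of cells, as a circle for library 1 and a triangle for library 2, with dotted lines at the values of mature VSN-like cells. Sustentacular-like cells overlapped the ranges of Mrc1-high macrophage-like and monocyte-like cells, and basal-like and gland-like cells lay near the dotted lines.

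Dendritic-like cells carried H2-Aa at 9567 ± 968 CPM, H2-Ab1 at 12340.1 ± 990.0 CPM, H2-Eb1 at 12732 ± 622 CPM and Cd74 at 31333 ± 5857 CPM (n = 2 libraries). Cd74 was found in 368 of 368 cells, which puts the share at 99.0% or more by the exact 95% binomial interval, an interval that covers counting error only. The peptide exchange factors stood at 985 ± 38.2 CPM for H2-DMa and 1005 ± 169 CPM for H2-DMb1, and Ciita at 81.8 ± 14.3 CPM. Set against the whole macrophage-like class, 8 of 8 members were higher in dendritic-like cells, where 13.3% of the 12111 tested genes were higher (edgeR quasi-likelihood test on UMIs summed per library and class, Benjamini-Hochberg adjusted p under 0.05, used throughout). Without the macrophage-like cells of library 2 the call was lost for H2-Ab1 (adjusted p = 0.0504), H2-Eb1 (0.0501) and Cd74 (0.374), and without the dendritic-like cells of library 1 it was lost for Cd74 (0.333). The macrophage-like class, however, joined clusters with different levels, so the Mrc1-low cluster was also compared on its own, a comparison added after the levels were seen.

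Against Mrc1-low macrophage-like cells, the genes of peptide loading and its control were higher in dendritic-like cells, whereas the classical chains and Cd74 were not called. In this comparison 4 of 8 members were higher and none was lower, with 10.2% of 11289 genes higher. H2-Oa stood at 299 and 258 CPM in dendritic-like cells against 19.2 and 26.3 CPM in Mrc1-low cells. The groups were far apart, by a log2 fold change of 3.55 (SE 0.20, adjusted p = 2.16e-08). H2-DMa, at 1012 and 958 against 511 and 559 CPM, was higher by 0.81 (SE 0.13, adjusted p = 0.000328), and H2-DMb1, at 1125 and 885 against 691 and 652 CPM, by 0.52 (SE 0.15, adjusted p = 0.0250). Ciita was at 71.6 and 91.9 against 36.6 and 49.2 CPM, a log2 difference of 0.85 (SE 0.20, adjusted p = 0.00682). Here too the libraries of the 2 classes did not overlap.

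The classical chains and Cd74 behaved otherwise. These are RNA levels, and whether the chains form surface molecules in these cells was not measured. The partner of H2-Eb1, H2-Ea, was not analysed, so H2-Eb1 levels stand for the beta chain alone and not for the molecule I-E. H2-Eb1 was at 13172 and 12292 CPM in dendritic-like cells and at 12148 and 12094 CPM in Mrc1-low cells, a log2 difference of 0.00 (SE 0.10, adjusted p = 0.995). The log2 differences of H2-Aa (0.10, SE 0.12), H2-Ab1 (0.03, SE 0.11) and Cd74 (−0.16, SE 0.14) also did not pass the test. The median over the 8 members was 0.31, against −0.03 over all genes tested. The pattern of 4 calls depended on the clustering: at a resolution of 0.5, under which H2-Aa, H2-Ab1 and H2-Eb1 were higher by 0.46, 0.39 and 0.37, 7 members were called. Without the dendritic-like cells of library 1 the calls for H2-DMb1 (adjusted p = 0.252) and Ciita (0.0561) were lost, without the Mrc1-low cells of library 1 that for Ciita (0.0627), and without those of library 2 that for H2-DMb1 (0.237). H2-Oa and H2-DMa kept theirs under all 15 alternatives run.

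**Figure D3:**
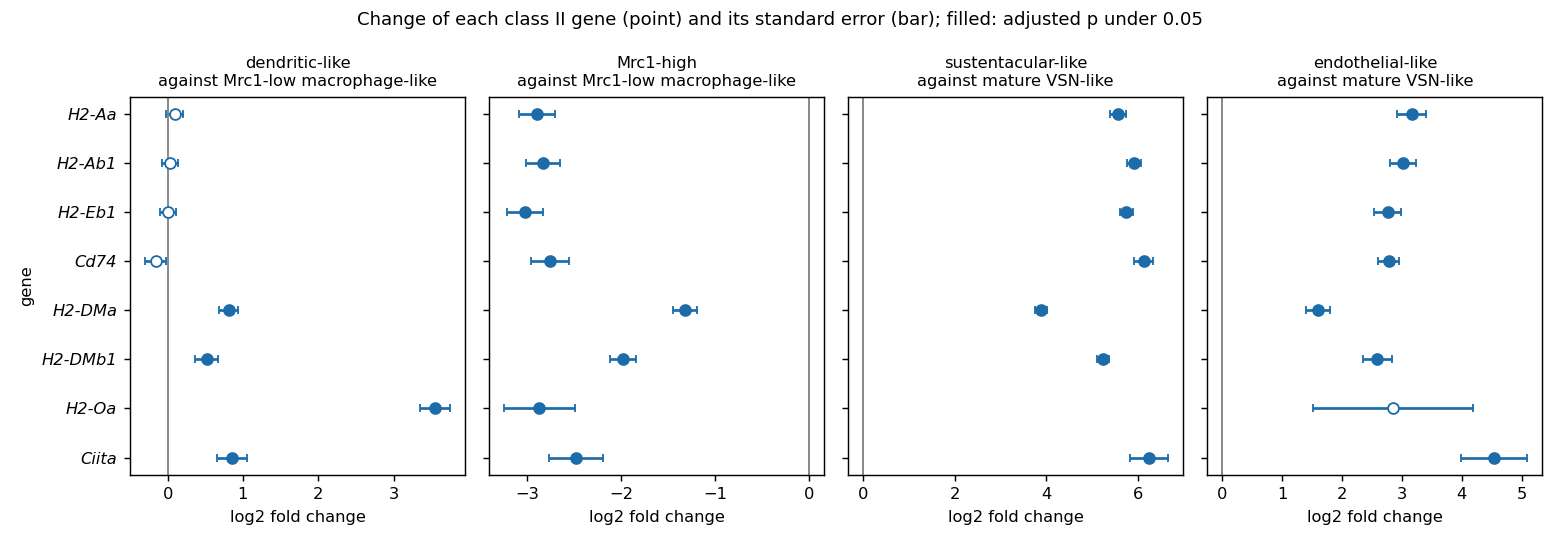
Log2 fold change of each class II gene (points) with its standard error (bars) in 4 comparisons between classes, filled where the adjusted p was under 0.05. H2-Oa stood apart in the dendritic-like against Mrc1-low comparison at 3.55, all 8 genes were lower in Mrc1-high than in Mrc1-low cells, and the 7 genes tested were higher in sustentacular-like than in mature VSN-like cells.

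H2-Oa, which restrains peptide exchange, was the member with the narrowest range of cells. At least 1 UMI was found in 66.6% of dendritic-like cells (median depth 7074.5 UMIs), 49.0% of B lineage cells (2368 UMIs), 9.70% of Mrc1-low and 1.83% of Mrc1-high macrophage-like cells (5645 and 5247 UMIs) and 0.284% of mature VSN-like cells (13824 UMIs). With each cell thinned to 2000 UMIs, which leaves out shallower cells, the shares were 32.8% in dendritic-like cells, 48.5% in B lineage cells, 4.39% in Mrc1-low macrophage-like cells and 0 in mature VSN-like cells. The order of dendritic-like and B lineage cells changed with depth, so none is read from these shares. H2-Oa was found in 0 of 119 monocyte-like cells, and the limit that this allows is 5.36 CPM or 2.52% of cells with a UMI, which at a median depth of 4917 UMIs is no limit on the share of cells that express it. Against monocyte-like cells the level in dendritic-like cells was at least 52.5-fold higher, from 774 UMIs against a floor of 3 UMIs over the group.

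H2-Ob, which encodes the partner chain of H2-Oa, was highest in B lineage cells. It was at 274 and 251 CPM in B lineage cells, 95.7 and 95.2 CPM in dendritic-like cells and 14.5 and 12.7 CPM in Mrc1-low macrophage-like cells. It was lower in dendritic-like than in B lineage cells by a log2 change of −1.38 (adjusted p = 7.37e-05), whereas the H2-Oa difference of 0.69 (SE 0.29) between these classes did not pass (adjusted p = 0.133), at 279 ± 28.5 against 187 ± 16.5 CPM.

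Within the dendritic-like class, re-clustered without the 8 genes, the summed level spanned a wide range. The 106 cells of the largest subcluster stood at 92020.1 and 85969.7 CPM and the 38 cells of the cDC1-like subcluster (6 of 6 markers), the cross-presenting conventional type, at 62262 and 58614 CPM. The 11 migratory dendritic-like cells (7 of 7 markers, among them Ccr7 and Fscn1) stood at 35894 and 36459.9 CPM and the 12 plasmacytoid dendritic-like cells (5 of 5 markers, among them Siglech) at 10319.6 and 9101 CPM. None of these library ranges overlapped. The migratory and cDC1-like subclusters had fewer than 20 cells in at least 1 library and were not tested, no test was run on the other subclusters, and these values are a description.

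The members did not scale together across the subclusters. In plasmacytoid dendritic-like cells H2-Aa was at 1185 and 1062 CPM, under the 9109.8 and 8678 CPM of cDC1-like cells, whereas H2-Oa, at 143 and 229.7 CPM, overlapped their 229 and 200.03 CPM. In migratory cells H2-DMa was at 106 and 349.9 CPM and H2-DMb1 at 106 and 140.0 CPM, against 961 and 1065 and 987 and 1065 CPM in cDC1-like cells, while Ciita, at 70.4 and 93.3 CPM, lay within the cDC1-like range of 57.1 to 100.0 CPM. The migratory values rested on 3 and 15 UMIs for H2-DMa, 3 and 6 for H2-DMb1 and 2 and 4 for Ciita. The plasmacytoid H2-Oa values rested on 7 and 8 UMIs. Counts this small cannot show that the Ciita or H2-Oa levels of these subclusters were alike. The highest H2-Oa levels were in the largest subcluster (419 and 558 CPM) and in a subcluster of 37 cells (583 and 418 CPM) in which 37 of 37 cells had an H2-Oa UMI. A subcluster of 62 cells with 4 of 6 markers of cDC2, the other conventional type, had a summed level of 87972 and 79689 CPM but an H2-Oa level of 174 and 159.9 CPM. A further 26 cells, 92.3% of them called doublets, stood at 33736 and 29024 CPM and remain in the class values above.

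The Mrc1-high and Mrc1-low macrophage-like clusters also differed in class II. In Mrc1-high cells 8 of 8 members were lower than in Mrc1-low cells, where 7.85% of 11227 genes were lower, and the median of the members was −2.79 on the log2 scale against 0.02 over all genes. H2-Aa was at 1739.6 and 1089 CPM in the 2 libraries of Mrc1-high cells and 8632 and 8458 CPM in those of Mrc1-low cells, a log2 change of −2.89 (SE 0.19, adjusted p = 1.70e-06). Cd74 was at 7525 and 4617 against 35873 and 31013 CPM, a change of −2.76 (SE 0.20, adjusted p = 3.55e-06). For both genes the 2 clusters were far from overlapping.

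The remaining members followed. H2-Eb1 was lower by 3.02 on the log2 scale, H2-Oa by 2.87, H2-Ab1 by 2.83 and Ciita by 2.48. H2-DMb1, lower by 1.98, and H2-DMa, lower by 1.32, differed least. H2-DMa stood at 283 and 244 CPM in Mrc1-high cells and 511 and 559 CPM in Mrc1-low cells, so its groups also did not overlap. The 8 calls held under every one of the 15 alternatives run, with H2-Aa between −4.37 and −2.55 and H2-DMa between −1.65 and −1.17. The summed level in Mrc1-high cells was 0.207 times that in Mrc1-low cells in library 1 and 0.142 times in library 2.

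The cells of these clusters were not uniform. In the Mrc1-high cluster the 8 genes took a median of 0.233% of a cell's UMIs, the upper quartile was at 1.32% and the 90th percentile at 4.05%. In the Mrc1-low cluster the median was 6.96%, the quartiles 3.58% and 9.20%, and the 10th percentile 0.273%. Single cells of each cluster reached the median of the other. Dendritic-like cells were narrower, with a median of 7.59% and quartiles of 5.77% and 8.97%, and sustentacular-like cells narrower again in absolute terms, with a median of 1.28% and quartiles of 0.985% and 1.65%. Monocyte-like cells had a median of 0.119% and a 90th percentile of 2.48%.

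**Figure D4:**
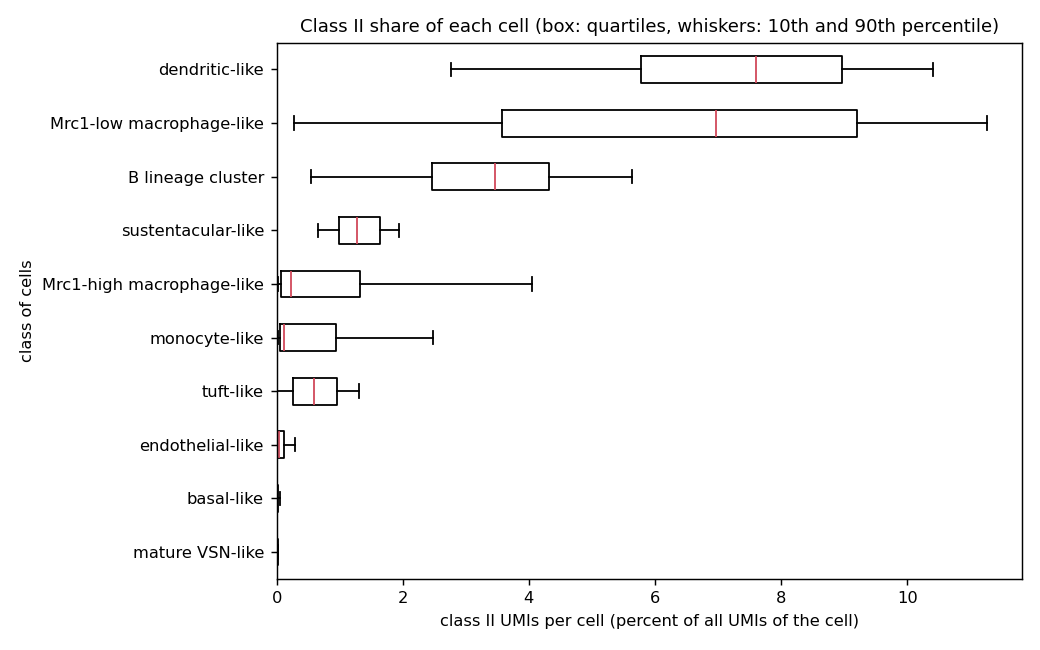
Share of each cell's UMIs taken by the 8 class II genes (percent) in 10 classes, with the median (red line), the quartiles (box) and the 10th and 90th percentiles (whiskers) over the cells of both libraries. Mrc1-low macrophage-like cells spread from 0.273% at the 10th percentile to beyond the dendritic-like median of 7.59%, and sustentacular-like cells lay close around 1.28%.

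Monocyte-like cells, which held monocyte and non-classical monocyte markers, had less class II than the macrophage-like class taken whole. That class joins the Mrc1-low and Mrc1-high clusters. The summed level of the Mrc1-high cluster (14429 and 9139.6 CPM) overlapped that of monocyte-like cells (7524 and 13511 CPM), and these were not tested against each other. Of the 8 members, 7 were higher in macrophage-like cells, with 10.8% of tested genes higher. Cd74 was at 25454 and 20270 CPM in macrophage-like and 4670.0 and 7064 CPM in monocyte-like cells (log2 change 2.12, SE 0.13, adjusted p = 5.81e-53). H2-Eb1 differed most among the classical chains (2.81, SE 0.15), at 8508 and 7747 CPM against 708 and 1959 CPM. For both genes the libraries of the 2 classes did not overlap. The 2 monocyte-like libraries, however, lay further apart than these SEs cover. The SEs and the adjusted p are therefore not a measure of the spread between libraries. H2-DMa, at 305 and 456 CPM in monocyte-like against 427 and 431 CPM in macrophage-like cells, overlapped between the classes and was not called (0.35, SE 0.17, adjusted p = 0.134). H2-Oa, with 105 UMIs against 0, was at least 2.87-fold higher in macrophage-like cells. The Ciita call (1.36, adjusted p = 0.0445) rested on 7 UMIs in monocyte-like cells and was lost when any single library of either class was left out (adjusted p 0.0700 to 0.382) and with the library as a block (0.0654), under which H2-DMa was called (0.0252). The H2-Oa call was lost without the monocyte-like cells of library 1 (adjusted p = 0.0776).

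Against dendritic-like cells the same class was lower for every member. In dendritic-like cells 8 of 8 members were higher than in monocyte-like cells, with 7.59% of tested genes higher, and the median of the members was 2.98 on the log2 scale (unchanged with H2-Oa at its bound) against 0.15 over all genes. H2-Aa differed by 3.14 (SE 0.23), Cd74 by 2.58 (SE 0.18) and H2-DMa by 1.56 (SE 0.18). The summed level was 9.89 times that of monocyte-like cells in library 1 and 4.603 times in library 2. The 2 libraries of monocyte-like cells, with 76 and 43 cells, differed in level from each other by more than those of the dendritic-like cells.

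The B lineage cluster, small and mixed with plasma cell markers, had H2-Oa at 187 ± 16.5 CPM, and how its 2 kinds of cells differ in class II is not reported here. Set against macrophage-like cells, 1 of 8 members, H2-Oa, was higher, with 3.14% of tested genes higher, and 5 of 8 were lower, with 9.42% of tested genes lower. H2-Oa was at 175 and 198 CPM in B lineage cells and 13.4 and 17.3 CPM in macrophage-like cells (log2 change 3.44, SE 0.39, adjusted p = 6.52e-17). The cluster had 32 and 19 cells in libraries 1 and 2. The small adjusted p values of its tests draw on spread pooled over all genes. They are not a measure of the spread between 2 libraries or between mice. H2-Ab1 (−1.20), H2-Eb1 (−1.22), H2-DMb1 (−1.42), H2-Aa (−0.93) and Cd74 (−0.81) were lower, and Ciita, on 7 UMIs, differed by 0.05 (SE 0.62, adjusted p = 0.973). The 5 lower calls did not hold without the macrophage-like cells of library 1, when their adjusted p values were 0.0597 to 0.594, and without those of library 2 H2-Aa (0.0964) and Cd74 (0.0963) were lost, while H2-Oa was called under all 16 alternatives run.

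In dendritic-like cells 6 of 8 members were higher than in B lineage cells, with 7.3% of tested genes higher. H2-DMb1 differed most (log2 2.39, SE 0.28, adjusted p = 1.82e-15), followed by H2-Ab1 and H2-Eb1 (1.81 each), H2-Aa (1.61), H2-DMa (1.60) and Cd74 (1.21). The limit given above for the adjusted p values of the B lineage cluster holds here too. H2-Oa and Ciita (1.34, SE 0.53, adjusted p = 0.0891) were not called, and without called doublets both were (adjusted p = 0.0338 and 0.0425). Without the dendritic-like cells of library 1 the Cd74 call was lost (adjusted p = 0.0518).

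Outside the leukocytes, sustentacular-like cells had class II at a level that overlapped the range of Mrc1-high macrophage-like cells. An unnamed cluster of 339 cells also held 3 of 5 sustentacular markers but was lower, at 5143 CPM. It was led by vomeronasal receptor genes and was not counted in this class of 284 cells, so the level is that of the named class only. Cd74 was found in 284 of 284 cells (98.7% to 100% by the exact 95% interval, median depth 11221.5 UMIs), with a median of 83 Cd74 UMIs per cell, against 37.3% of mature VSN-like cells at a median depth of 13824 UMIs. Thinned to 2000 UMIs per cell the shares were 99.6% and 10.6%. H2-Eb1 was found in 99.3% and H2-Ab1 in 97.5% of sustentacular-like cells. Ciita was found in 71 of 284 sustentacular-like cells (exact 95% interval 20.1% to 30.5%) and in 0.426% of mature VSN-like cells. As Cd74 was found in every cell of the class, its presence in the 71 cells with a Ciita UMI carries no further information.

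Of the 7 members with enough UMIs to be tested against mature VSN-like cells, 7 were higher in sustentacular-like cells, with 28.8% of 14143 genes higher. H2-Aa was at 1203 and 999 CPM against 23.1 and 28.9 CPM in mature VSN-like cells (log2 change 5.55, SE 0.18, adjusted p = 2.91e-06). Cd74 was at 9155 and 6696 against 124 and 128 CPM (6.12, SE 0.21, adjusted p = 3.64e-06). The libraries of the 2 classes were far apart for both genes. H2-Ab1 (5.91), H2-Eb1 (5.75), H2-DMb1 (5.23) and H2-DMa (3.88) were higher too, and Ciita, with 83 UMIs against 3, was 77.6-fold higher with a 95% counting interval of 25.6 to 384. The median of the 7 was 5.75 against −0.08 over all genes, and all 7 calls held under the 16 alternatives run. H2-Oa, with 4 UMIs in 284 cells, was not tested.

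The level was similar in sustentacular-like cells in which no UMI of 10 leukocyte markers was found. All 10 listed leukocyte markers outside class II (Ptprc, Tyrobp, Fcer1g, Laptm5, Cd52, Lyz2, C1qa, C1qb, C1qc and Coro1a) were detected in the class, at 3.39 to 117 CPM each and together at 862 CPM in library 1 and 333 CPM in library 2, against 139 and 296 CPM in mature VSN-like cells. In the 172 sustentacular-like cells without a single UMI of these genes, Cd74 was found in 172 cells with a median of 80 UMIs, and the 8 genes stood at 13011 CPM against 13444 CPM over all 284 cells. The 425 mature VSN-like cells without such a UMI stood at 87.3 CPM against 249.6 CPM over all 705. Class II UMIs per leukocyte UMI were 22.2 in sustentacular-like cells, 2.53 in endothelial-like cells and 1.21 in mature VSN-like cells. With these cells left out of both classes the 7 members were called again, at log2 changes of 3.88 (H2-DMa) to 7.93 (Cd74).

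Sustentacular-like cells were also set against the non-sensory epithelial-like class, whose markers they share in part, a comparison added after the levels were seen. Again 7 of 7 tested members were higher, with 19.2% of tested genes higher, at log2 changes of 3.40 (H2-DMb1) to 5.29 (Cd74). The summed level was 51.8 times that of non-sensory epithelial-like cells in library 1 and 35.5 times in library 2.

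Tuft-like cells had a lower level than sustentacular-like cells and carried the same members. Cd74 was at 4552 and 3204 CPM and was found in 79.8% of cells at a median depth of only 1024 UMIs, the summed level was 7683 and 5300.0 CPM, and 7 of 7 tested members were higher than in mature VSN-like cells, with 20.2% of tested genes higher (a comparison added after the levels were seen). Cd74 differed by 5.02 on the log2 scale (SE 0.21, adjusted p = 4.89e-06), H2-Ab1 by 4.65 and H2-DMa by 2.95. Ciita rested on 9 UMIs against 3, a ratio of 30.5 with a counting interval of 7.60 to 175. The class differed from the sustentacular-like cells in its leukocyte RNA, as the 10 markers together were at 2185 and 1213 CPM. In the 350 tuft-like cells without such a UMI, 73.7% had Cd74 and the 8 genes stood at 5402 CPM, against 6647 CPM over all cells.

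In endothelial-like cells, which line vessels, class II was low but above the mature VSN-like level. Cd74 was at 619 and 905 CPM against 124 and 128 CPM (log2 change 2.78, SE 0.17, adjusted p = 5.77e-06), and the groups did not overlap. Of 8 members 7 were higher, with 32.7% of tested genes higher, among them H2-Aa (3.16, SE 0.25), H2-Ab1 (3.02), H2-Eb1 (2.76), H2-DMb1 (2.59) and H2-DMa (1.60). Ciita, with 37 UMIs against 3, was 22.9-fold higher (counting interval 7.25 to 116), and H2-Oa, on 8 UMIs, was not called (adjusted p = 0.0948). Cd74 was found in 53.0% of endothelial-like cells (36.5% thinned, median depth 5453 UMIs), against 37.3% (10.6% thinned) of mature VSN-like cells. The leukocyte markers stood at 502 and 721 CPM in the endothelial-like class. The 447 endothelial-like cells without a leukocyte UMI stood at 785 CPM against 1563 CPM over all and mature VSN-like cells at 87.3 against 249.6 CPM, and with such cells left out of both classes 7 members were called again (Cd74 3.65, adjusted p = 3.10e-06).

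The comparison of Selp-high endothelial-like cells (365 cells, 3 of 6 venous markers higher than in the other cluster) with Selp-low ones (384 cells) gave no stable difference. Of 7 tested members 1, H2-DMb1, was higher in Selp-high cells, with 6% of tested genes higher. It stood at 39.3 and 69.1 CPM against 30.3 and 34.4 CPM (log2 change 0.87, SE 0.26, adjusted p = 0.0258). The call was lost without library 2 of the Selp-high cells (adjusted p = 0.500, when H2-Ab1 at −0.74 and Cd74 at −0.72 were called), without library 1 (0.110) or library 2 (0.0611) of the Selp-low cells, and in DESeq2 (0.412). With the library as a block 3 members were called, H2-DMb1 and 2 that were lower, H2-Ab1 (−0.32, adjusted p = 0.0206) and Cd74 (−0.28, adjusted p = 0.0145). In cells without a leukocyte UMI the direction of Cd74 turned to 1.04 and that of H2-Eb1 from −0.05 to 1.46, and both were called along with H2-Aa (1.33).

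Basal-like, gland-like and non-sensory epithelial-like cells had summed class II levels near those of mature VSN-like cells. Summed levels were 251 and 236 CPM in basal-like, 282 and 233 CPM in gland-like and 290.5 and 331 CPM in non-sensory epithelial-like cells, against 245 and 256 CPM. Cd74 was found in 37.4%, 42.2% and 36.3% of these cells at median depths of 8204, 17494 and 10356 UMIs, and thinned to 2000 UMIs in 14.1%, 9.34% and 11.1%, against 37.3% and 10.6% in mature VSN-like cells. The gland-like share was above the reference of 37.3% before thinning (42.2%) but not above 10.6% after it (9.34%). After thinning the basal-like (14.1%) and non-sensory epithelial-like (11.1%) shares were above 10.6%. Differences between these shares were not tested. In cells without a leukocyte UMI the classes parted, at 147 to 194 CPM in basal-like, 119 to 145 CPM in non-sensory epithelial-like and 61.4 to 63.4 CPM in gland-like cells against 81.1 to 95.3 CPM in mature VSN-like cells.

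The tests nevertheless called some members in these classes. They were 3 of 6 in basal-like cells (34% of tested genes higher), 5 of 6 in gland-like cells (30.5% higher) and 5 of 7 in non-sensory epithelial-like cells (33.5% higher), with none lower on the TMM scale. The log2 changes were small, up to 1.87 for H2-DMb1 in basal-like cells, 1.52 for H2-Ab1 in gland-like cells and 1.84 for H2-DMb1 in non-sensory epithelial-like cells. H2-DMb1 was at 23.9 and 19.9 CPM in basal-like cells and 8.88 and 7.92 CPM in mature VSN-like cells. For gland-like cells the CPM of H2-Ab1 (39.8 and 32.8 against 31.98 and 31.4) differed far less than its TMM-scaled change. Calls for H2-DMb1 in gland-like cells (6.14 and 7.03 against 8.88 and 7.92 CPM) and Cd74 in basal-like cells (122 and 111 against 124 and 128 CPM) turned direction in CPM. Without cells holding a leukocyte UMI 5 members were called higher in basal-like cells, among them Cd74 (1.76) and H2-Aa (1.19), and in gland-like cells Cd74 was higher (1.27) and H2-DMa lower (−1.64). Without the basal-like cells of library 1 or the mature VSN-like cells of library 2 the Cd74 call in basal-like cells was lost (adjusted p = 0.0694 and 0.0530), and without library 2 of the non-sensory epithelial-like cells those of H2-Aa (0.0682) and H2-Eb1 (0.168).

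Macrophage-like cells against the same reference gave 8 of 8 members higher, with 33.5% of tested genes higher and log2 changes of 5.58 (H2-DMa) to 8.61 (H2-Ab1), leaving aside H2-Oa and Ciita, which had 2 and 3 UMIs in mature VSN-like cells and ratios of 76.2 (counting interval 20.6 to 638) and 98.8 (33.3 to 483). The comparisons with mature VSN-like cells share those control sums and are not independent of each other.

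The balance between the members shifted with the class of cell. Cd74 made up 46.1% of the UMIs of the 8 genes in dendritic-like cells (47.7% and 43.7% in libraries 1 and 2), 50.04% in Mrc1-low and 51.5% in Mrc1-high macrophage-like cells, 55.7% in B lineage cells and 59.3% in sustentacular-like cells (60.9% and 57.0%). The dendritic-like and sustentacular-like libraries did not overlap. H2-Aa made up 13.97% in dendritic-like and 8.22% in sustentacular-like cells. These shares are a description within each class and were not tested.

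**Figure D5:**
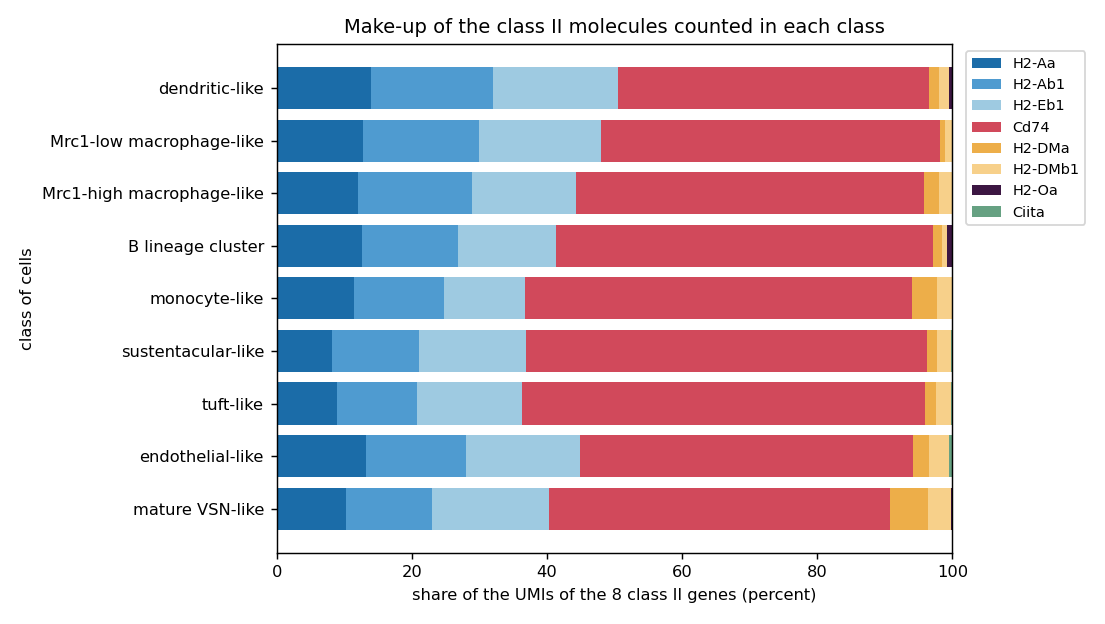
Share of the UMIs of the 8 class II genes (percent) that each gene took in 9 classes of cells, both libraries together. Cd74 took 46.1% in dendritic-like and 59.3% in sustentacular-like cells, and H2-Aa 13.97% and 8.22%.

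Other genes of the pathway, taken from lists set by their role, are given next, with H2-Ea, the partner of H2-Eb1, not analysed here. Between dendritic-like and Mrc1-low macrophage-like cells, 3 of 3 tested other class II chains were higher in dendritic-like cells, namely H2-DMb2 (3.65, SE 0.21, adjusted p = 2.19e-08), H2-Eb2 (3.17) and H2-Ob (2.73), all on the log2 scale and with H2-DMb2 and H2-Eb2 subject to the sharing of reads described above. Of 8 endosomal proteases and their regulators 6 were lower and 1 higher, with a median of −1.83, where 1088 of all 11289 tested genes were lower and 1149 higher. Ctsd, which encodes cathepsin D, was lower by 4.38 (adjusted p = 3.76e-09) and Lgmn, asparaginyl endopeptidase, by 2.99, while Ifi30, the lysosomal thiol reductase GILT, was higher by 0.95. Of the 7 genes of the class II enhanceosome, the promoter-bound complex of RFX, NF-Y and CREB subunits that recruits Ciita, none was called higher or lower, with a median of 0.00. Among 11 regulators of Ciita and of class II turnover, Irf4, a transcription factor of dendritic and B cells, was higher by 3.20 (adjusted p = 5.52e-06), and March8, a ubiquitin ligase that removes class II from the surface, and Ifngr2 were lower by 2.96 and 0.80.

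Of 5 costimulatory genes Cd80 was higher by 1.13 and Cd86 lower by 0.53 in dendritic-like cells, and of 6 class I genes 3 were lower, B2m by 0.69, H2-K1 by 0.60 and H2-D1 by 0.38. Between the macrophage clusters the enhanceosome again gave no call among 7 genes, and of 8 proteases 3 were higher in Mrc1-high cells (Ctsl 0.73, Lgmn 0.42 and Ctsb 0.39) and 3 lower (Ifi30 −1.31, Ctss −1.15 and Ctsz −0.76), where 710 of all 11227 tested genes were higher and 881 lower. Ctss encodes cathepsin S, which cleaves the invariant chain. Of 11 regulators Cd83 (−1.80) and Irf8 (−0.72) were lower and Ifngr1 (0.55) higher, of 5 costimulatory genes Cd274 (−2.08) and Icosl (−0.89) were lower, and of 6 class I genes only B2m (−0.47) was called.

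In sustentacular-like cells, set against mature VSN-like cells, 5 of 9 tested regulators of Ciita and of class II turnover were higher. Among them were Irf1 (3.02), Irf8 (2.59), Cd83 (2.53) and the interferon-gamma receptor chain Ifngr1 (1.00), on the log2 scale. No tested regulator was lower. The lists were not tested again without cells holding a leukocyte UMI. Of 8 proteases 6 were higher, led by Lgmn (4.24) and Ifi30 (3.07). Of 6 class I genes 4 were higher, H2-K1 (3.24), Tap1 (2.28), H2-D1 (2.06) and Tap2 (1.07). Costimulation did not follow, as Cd274 was lower (−2.36) and Cd86 (1.006) was not called, the only 2 of the 6 genes with enough UMIs. Of 7 enhanceosome genes Rfx5 (1.50) and Nfyb (0.99) were higher and Creb1 (−0.49) lower. Against the same neurons, endothelial-like cells had higher Irf8 (4.48) and Irf1 (3.26), and 5 of 6 class I genes higher, with H2-K1 at 4.72. How far these lists stand apart from other genes was not tested, and 28.8% and 32.7% of all genes were higher in the 2 comparisons.

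Across 19 named classes of cells, the Pearson correlation of log2(CPM + 1) between H2-Aa, H2-Ab1, H2-Eb1 and Cd74 was 0.988 to 0.996, and between H2-Oa and the other 7 members 0.532 to 0.656. Among all other genes with at least 100 UMIs, the summed level was most like Aif1 (0.902), Ly86 (0.893), Cx3cr1 (0.889), Ppfia4 (0.883) and Slamf9 (0.868). H2-Oa was most like Cox6a2 (0.882), Ccr7 (0.866), Gpr171 (0.866), Il4i1 (0.861) and Cd72 (0.860), of which Cox6a2, Ccr7, Il4i1 and Cd72 also served as markers of cell types. The classes share the 2 libraries and differ in depth, so these coefficients are a description.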

How the data were processed

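Per the labels and the study's methods, the authors dissociated VNOs, made 2 droplet 3′ libraries, processed them with Cell Ranger (version 4 in the submitters' processing notes) against mm10 and joined them in 1 aggregated matrix. The deposited values are counts of UMIs per gene and cell. No source used here states whether reads were equalised between libraries. The libraries held 108005626 and 95442231 UMIs.

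Of 24084 barcodes, 10592 passed limits of 200 to 9000 genes and at most 5% mitochondrial UMIs, and genes found in at least 3 cells entered. Scrublet (expected rate 8%) called 172 doublets, which were kept. Seurat 5.3.0 clustered the cells (2000 variable genes less the listed class II and pathway genes, 30 principal components, resolution 0.8). A cluster was named from at least 3 markers raised 4-fold (subsets 1.5-fold), with choices between lists made by hand after the data were seen. UMIs were summed per library and class and tested with edgeR 4.0.16 (quasi-likelihood, TMM, at least 10 UMIs in the sums compared, Benjamini-Hochberg threshold 0.05) in R 4.3.3, after the scripts were tested on simulated data. DESeq2 1.42.0 was an alternative. The genes named are the 8 members, the called genes of the pathway lists, and the genes most like the members by correlation. The members and lists were chosen with earlier results of these data known.

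Same-numbered sums come from the same library and so are paired by capture. Over genes, which are not independent replicates, their deviations from the class means correlated at 0.0125 to 0.237. Shares of cells carry exact 95% binomial intervals, and with 0 UMIs a limit of 3 counts. PCR duplicates are collapsed by UMI, and intervals cover counting error only.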

Additional observations from a re-analysis of the deposited data

Results flagged for a closer look

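Class II UMIs above the level of mature VSN-like cells (250.4 CPM) appeared in 5 of the 6 unnamed clusters, which enter no comparison above. Cluster 14 (339 cells, median depth 26254 UMIs, 3 of 5 sustentacular markers, led by vomeronasal receptor genes) stood at 5143 CPM (5427 and 4860 CPM in the libraries). Cd74 was found in 339 of its 339 cells, also in each of the 153 cells without a leukocyte UMI, and Ciita in 18.3% of cells. Cluster 23 (163 cells, led by cell division genes such as Pbk and Hmmr) stood at 5891 CPM, and its 82 cells without a leukocyte UMI at 360.4 CPM. Cluster 20 (215 cells, 98.6% of them from library 1) stood at 4749 CPM, with 8316 CPM in library 1 and 1183 CPM in the 3 cells of library 2. Cluster 28 (55 cells, 16.4% of them called doublets) stood at 5144 CPM, with 1592 and 8695 CPM in the libraries. Cluster 17 (283 cells, median depth 1117 UMIs) stood at 311 CPM. The part of leukocyte RNA, doublets or depth in these values was not tested beyond the cells without a leukocyte UMI.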

How the results depend on the processing

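Of 1846 values of single members under alternatives, 1752 kept their direction and side of the threshold, 70 lost the call, 18 gained it and 6 turned. The turned values were H2-Eb1 (1.46) and Cd74 (1.04) in Selp-high against Selp-low endothelial-like cells, H2-Eb1 in basal-like cells (1.10) and H2-DMa in gland-like cells (−1.64), all without non-immune cells holding a leukocyte UMI, and H2-Eb1 in non-sensory epithelial-like cells at a mitochondrial limit of 10% (-0.070) and with cells thinned to 2000 UMIs (-0.055). The number of members called moved past 1.5 times, or from called to none, in few comparisons, and the cause was not tested. Without non-immune cells holding a leukocyte UMI it was 3 in the Selp comparison, 5 in basal-like, 2 in gland-like and 3 in non-sensory epithelial-like cells. With thinned cells it was 3 in gland-like and 2 in non-sensory epithelial-like cells. Non-sensory epithelial-like cells gave 3 in a joint fit, 2 at the 10% limit and 1 without doublets. Dendritic-like against macrophage-like cells gave 5 in a joint fit, dendritic-like against Mrc1-low cells 7 at resolution 0.5, and the Selp comparison 0 in DESeq2.

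With the library number as a replicate block 3 members were called in the Selp comparison, H2-DMa was gained and Ciita lost between macrophage-like and monocyte-like cells, and no other call changed. Leaving out single libraries gave 1 to 6 called members for B lineage against macrophage-like, 2 to 4 for dendritic-like against Mrc1-low, 5 to 8 for dendritic-like against macrophage-like, 5 to 6 for dendritic-like against B lineage and for macrophage-like against monocyte-like, 3 to 5 for non-sensory epithelial-like, 2 to 3 for basal-like, 6 to 7 for tuft-like and 0 to 2 for Selp-high cells. A class left with 1 library was assumed to vary like the other.

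Counts over all genes moved more. DESeq2 called 1832 in place of 3139 genes for dendritic-like against macrophage-like, 1266 in place of 2237 against Mrc1-low, 714 in place of 1385 against monocyte-like and 483 in place of 941 against B lineage cells, 921 in place of 1591 between the macrophage clusters, 1360 in place of 2245 for macrophage-like against monocyte-like, 3014 in place of 5024 for sustentacular-like against non-sensory epithelial-like and 546 in place of 1243 in the Selp comparison. The block gave 2467 between the macrophage clusters and 1935 in the Selp comparison. Thinning lowered the count in 11 comparisons, for example from 8443 to 4556 for sustentacular-like against mature VSN-like cells, and the 10% limit gave 8054 for sustentacular-like against non-sensory epithelial-like cells.

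Depth limits H2-Oa and Ciita most, since 7 Ciita UMIs stood behind the monocyte-like and the B lineage values. The 10% limit raised the summed level of monocyte-like cells from 10518 to 18529 CPM and took in 1386 sustentacular-like cells at 12325 CPM in place of 284 at 13387 CPM. It lowered tuft-like cells from 6492 to 3628 and olfactory ensheathing-like cells from 2203 to 1107 CPM and raised gland-like cells from 258 to 587 CPM, with mature VSN-like cells at 248 CPM. Tests planned for migratory and cDC1-like dendritic cells were not run for want of cells, and the Selp comparison had no value at the 10% limit or at resolution 0.5.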
